A study of Mus musculus with 4 samples.

Results

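Promoters of the nuclear genes that encode the mitochondrial respiratory chain and ATP synthase were examined for dimethylation of histone H3 at lysine 9 (H3K9me2) in vascular smooth muscle cells (VSMCs) of the mouse aorta. The members were taken by symbol from the deposited promoter table, as rows whose symbol begins with Ndufa, Ndufb, Ndufc, Ndufs or Ndufv and a digit, with Uqcr, with Cox and a digit from 4 to 8, or with Atp5, together with Sdha, Sdhb, Sdhc and Sdhd. This gave 86 of 26354 promoters, of which 37 belonged by symbol to complex I, 4 to complex II, 8 to complex III, 19 to complex IV and 18 to complex V. H3K9me2 was immunoprecipitated from the medial layer of aortas of male C57Bl/6J mice, from which adipose tissue, adventitia and endothelium had been removed by hand and which was fixed without culture. In each of 2 experiments, v102 and v134, a ChIP library was sequenced together with an input library of sheared chromatin, so all values come from unstimulated wild-type tissue, and the comparison is ChIP against input. Ages and the number of animals in each library were not given in the sources used here, and p-values measure only the spread between these 4 libraries.

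The respiratory chain passes electrons from NADH (complex I) and succinate (complex II) through coenzyme Q, complex III and cytochrome c to oxygen at complex IV, and the proton gradient it builds drives ATP synthase (complex V). Most subunits are encoded in the nucleus and made in nearly every cell, but some complex IV subunits exist as isoforms used in heart and skeletal muscle, in testis or under low oxygen. H3K9me2 is a mark of facultative heterochromatin that is laid down mainly by the methyltransferases Ehmt2 and Ehmt1 and is associated with repressed genes.

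The authors counted reads within 1 kb either side of each transcription start site. Over all listed promoters the libraries held 162233 and 229605 H3K9me2 reads in v102 and v134, and 619100 and 1084349 input reads. At respiratory chain promoters the median was 3 and 4.5 H3K9me2 reads and 22 and 39.5 input reads, so a single promoter was measured with few reads. Of the 5 smooth muscle marker promoters, Myh11 had 0 H3K9me2 reads in both experiments against 60 summed input reads, whereas Smtn had 49 against 80 input reads. At Ptprc, a leukocyte gene, there were 54 against 74. In the test described next, 1 of these 5 markers was below and 1 above input, as were 2 and 1 of the 6 markers of leukocytes, endothelium and adventitial fibroblasts. Over all promoters 17.0% were below and 18.6% above. With the experiment number as a replicate block, 0 of the 6 were below. The values at these markers are levels of the mark and not of expression, so they do not check the identity of the tissue.

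Respiratory chain promoters carried on the whole less H3K9me2 than the typical promoter, but a few carried much more. The deposited ratio, which divides summed H3K9me2 reads by summed input reads without scaling for library size, had a median of 0.126 over the 86 members and 0.162 over all promoters. It ranged from 0 at Atp5s and Ndufb11 to 1.00 at Atp5l-ps1. By edgeR's quasi-likelihood test with an adjusted p under 0.05, 21 members (24.4%) were called below input, compared with 17.0% of all promoters, and 6 members (6.98%) were called above input, compared with 18.6% of all promoters. The other 59 members were not called. Called above or below here is relative to the 0 set by the fit's scaling (TMM), on which the median of all promoters was itself -0.35. Scaling by library totals shifted every promoter's log2 fold change, by -0.143 at the median, and gave 24 members below and 6 above, compared with 21.5% and 16.3% of all promoters. With the experiment number as a replicate block, 12 members (14.0%) were below, compared with 8.30% of all promoters, and 6 were above, compared with 15.8%. DESeq2 called 0 members below and 3 above, compared with 0.110% and 11.5% of all promoters. The 3 above were Ndufs4, Cox7b2 and Atp5l-ps1. Cox8c, Ndufa13 and Ndufb2 were not called by DESeq2 (adjusted p = 0.0654, 0.0630 and 0.150). DESeq2 gave no adjusted p for 59 of the 86 members and for 17372 of all 26354 promoters. At an unadjusted p under 0.05, DESeq2 had 12 members below and edgeR had 28. The shares of all promoters at that threshold were not counted, so these counts compare only the tests with each other. In bulk chromatin, a mark carried by some of the cells cannot be told apart from a low level in all of them.

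The experiments placed most members on the same side of 0 on the log2 H3K9me2/input scale, with 1 read added and each library scaled by its promoter total. This 0 is the level over all promoters together, and the median promoter lies below it. Of the 86 members, 51 (59.3%) lay below 0 in both experiments, compared with 45.02% of all promoters, 18 (20.9%) lay above 0 in both, compared with 32.3%, and 17 lay on opposite sides. In the top quartile of both experiments were 5 members, Ndufs4, Cox7b2, Cox8c, Ndufa13 and Atp5l-ps1, whereas 17.7% of all promoters were. By the deposited ratio, 8 members (9.30%) were at or above the 75th percentile of 0.343, compared with 25.0% of all promoters. The ranks of the members in v102 and v134 had a Spearman rho of 0.544 over 86 promoters, compared with 0.689 over all 26354 promoters, which share the same 4 libraries.

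**Figure D1:**
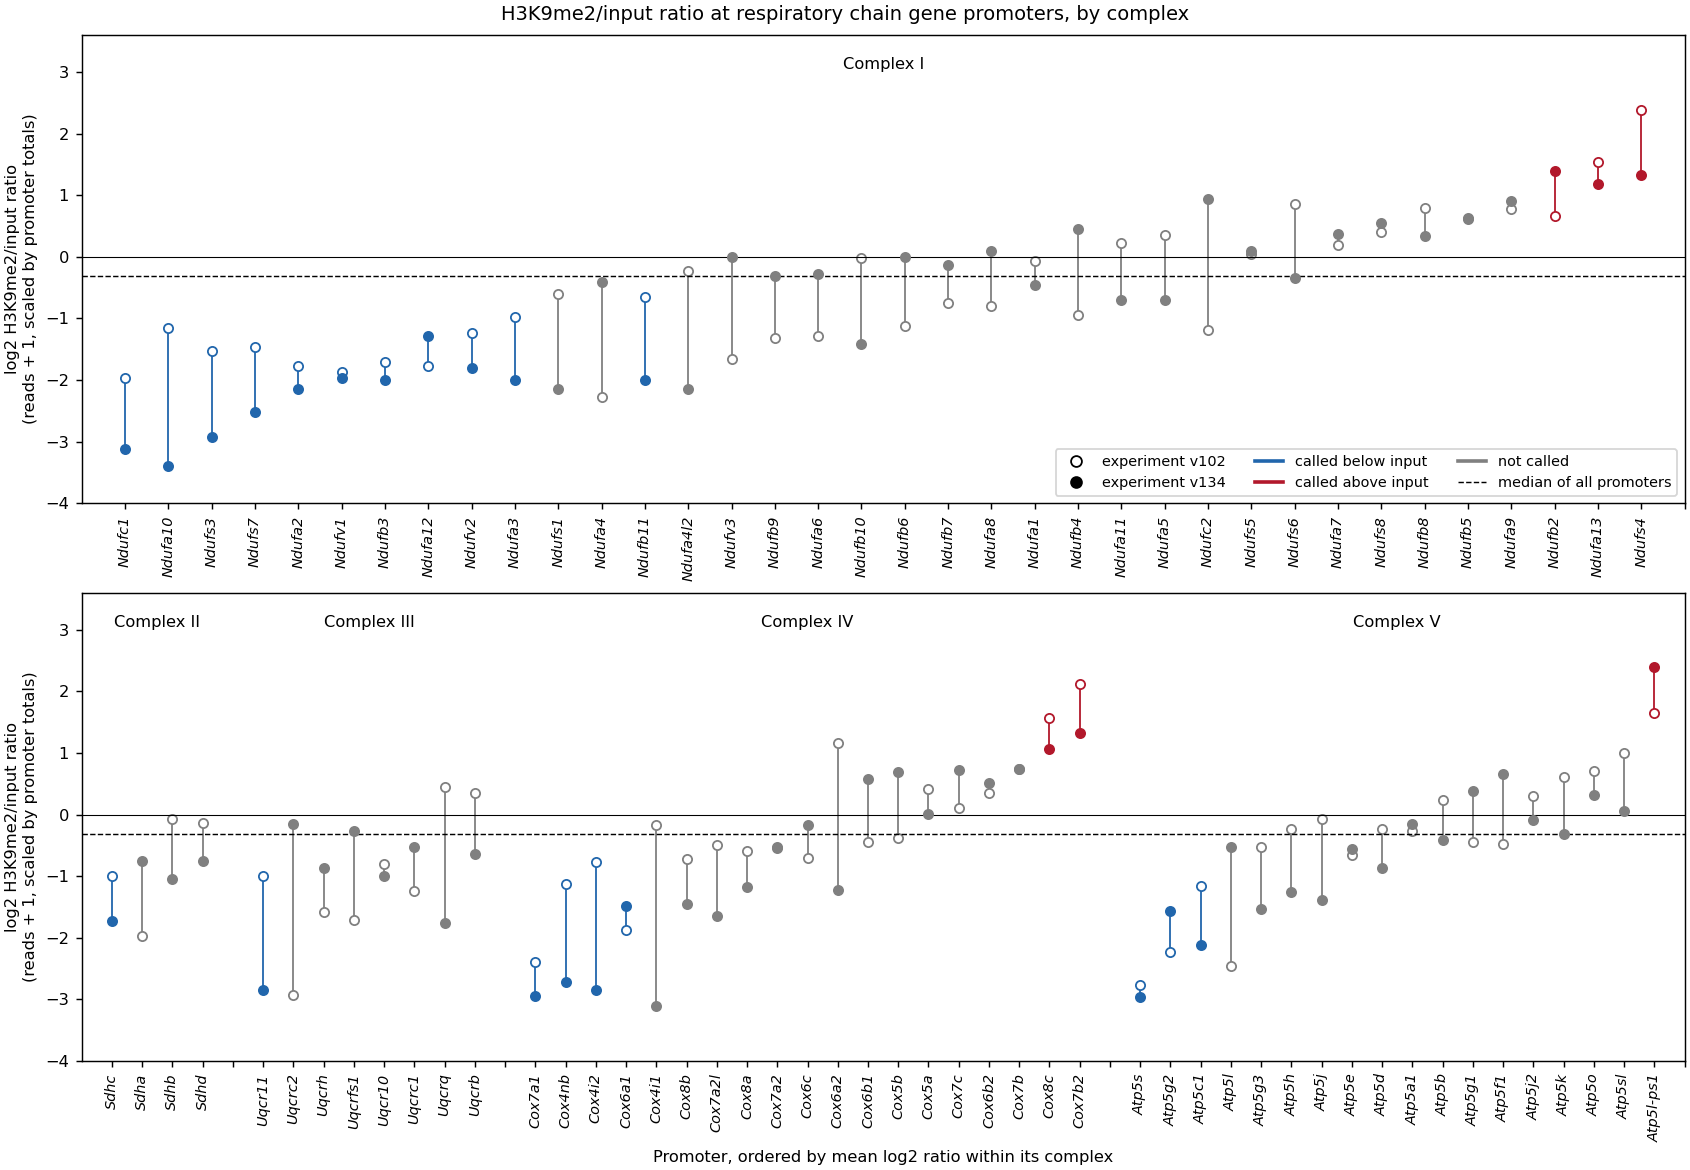
Log2 H3K9me2/input ratio of each respiratory chain promoter in v102 (open points) and v134 (filled points), joined by a line, grouped by complex and ordered by the mean. Blue marks promoters called below input by edgeR, red the 6 called above input and grey the 59 not called, with 1 complex I promoter not drawn; the dashed line is the median of all promoters, -0.31.

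Among the complexes, the median of the mean log2 ratio was lowest in complexes II and III and highest in complexes IV and V. It was -0.72 in complex I, -0.96 in complex II, -0.95 in complex III, -0.43 in complex IV and -0.39 in complex V, compared with -0.63 over all members and -0.31 over all promoters. In v102 and v134 taken singly, the medians were -0.80 and -0.41 in complex I, -0.57 and -0.90 in complex II and -1.12 and -0.76 in complex III. They were -0.45 and -0.54 in complex IV and -0.25 and -0.47 in complex V. Complexes II and III thus lay below complexes IV and V in both experiments. Complex I lay below complex II in v102 but above all other complexes in v134, so the order of the complexes differed between the experiments. All promoters had medians of -0.11 and -0.38 in v102 and v134. Summed over promoters and scaled by library totals, H3K9me2 relative to input was 0.552 and 0.368 in complex II and 0.360 and 0.468 in complex III, whereas it was 0.740 and 0.789 in complex I, 0.876 and 0.787 in complex IV and 0.793 and 0.829 in complex V. Calls below input were made at 12 of 37 promoters of complex I, 1 of 4 of complex II, 1 of 8 of complex III, 4 of 19 of complex IV and 3 of 18 of complex V, and calls above input at 3, 0, 0, 2 and 1. In percent, 32.4, 25.0, 12.5, 21.1 and 16.7 of each complex were below, compared with 17.0% of all promoters, and complexes IV and V were close to that share. Those above made up 8.11% of complex I, 10.5% of complex IV and 5.56% of complex V, compared with 18.6% of all promoters. The 1 above in complex V was the pseudogene Atp5l-ps1, and the 2 in complex IV were testis isoforms. Of the 12 complex IV promoters outside the tissue-restricted isoforms, 2 were below and 0 above. These groups follow symbols, so the calls below also include Cox4nb (now Emc8) in complex IV and the accessory factor Atp5s in complex V.

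Ribosomal proteins are also made in nearly every cell, and promoters with their symbols were set beside the respiratory chain. The cytosolic list of 153 promoters was taken by symbol alone (Rpl or Rps). It is mixed, because the pattern also admits pseudogenes and kinase genes whose symbols begin with Rps. Of these 153 promoters, 18.3% were called below and 23.5% above input, compared with 17.0% and 18.6% of all promoters. Their median log2 ratio was -0.01. Among 77 mitochondrial ribosomal protein promoters, 20.8% were below and 7.79% above, with a median of -0.53, close to the -0.63 of the respiratory chain. The difference between the families was not tested, because promoters of one library are not replicates.

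**Figure D2:**
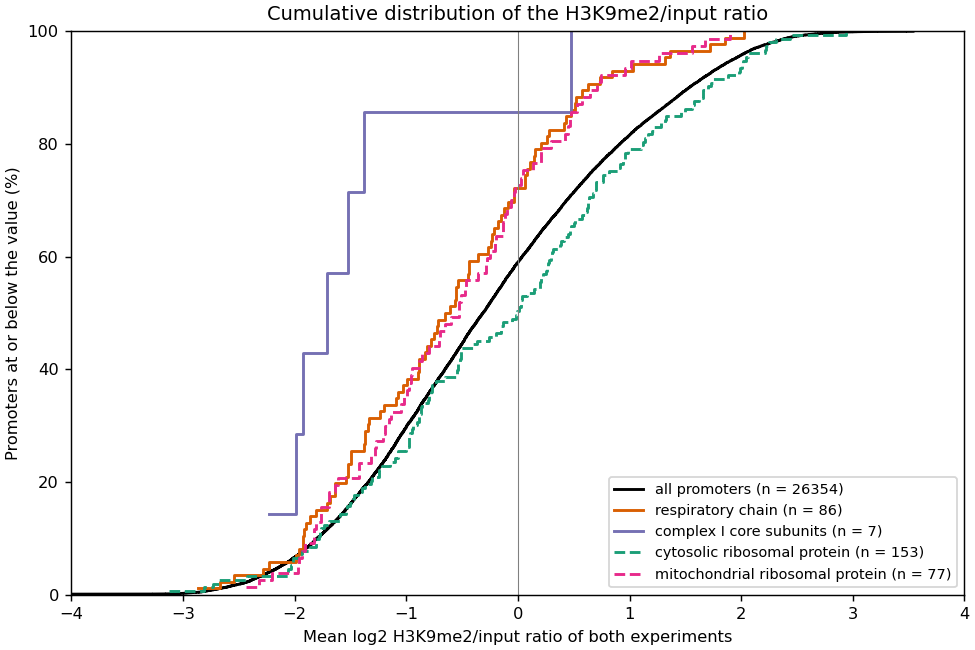
Cumulative share of promoters (percent) against the mean log2 H3K9me2/input ratio of both experiments, for all 26354 promoters, the 86 respiratory chain promoters, the 7 complex I core subunits and the cytosolic (153, a mixed list taken by symbol) and mitochondrial (77) ribosomal protein promoters. The respiratory chain and mitochondrial ribosomal curves lie close together and to the left of all promoters, and 6 of the 7 core subunits lie further left.

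Complex I holds a core of 7 nuclear-encoded subunits that bind NADH, flavin and the iron-sulfur clusters, and a larger set of accessory subunits. The core promoters were low in H3K9me2: 5 of the 7 were called below input and none above, compared with 17.0% and 18.6% of all promoters. Among the 30 accessory promoters 7 (23.3%) were below, nearer the share of all promoters, and 3 (10.0%) above. The median log2 ratio was -1.71 in the core and -0.40 in the accessory subunits. With the replicate block, 4 of the 7 core promoters were below, compared with 8.30% of all promoters, and when each input had to hold 20 reads or more, 3 of 6 were, compared with 12.0%.

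Ndufv1, which binds NADH and flavin (chromosome 19, 4007384 to 4012806, GRCm38), had 1 H3K9me2 read in each experiment against 27 input reads in v102 and 36 in v134, a ratio of 0.0317 with a 95% Wilson interval of 0.00855 to 0.118. Its log2 fold change was -2.68 (SE 0.86, edgeR adjusted p = 0.00942). Ndufv2, its iron-sulfur partner, had 1 read in each experiment against 17 and 32 (edgeR adjusted p = 0.0384, and 0.0862 with the replicate block). Both were low in both experiments.

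At the quinone-binding end, Ndufs7 had 1 read in each experiment against 20 and 53 input reads, and its log2 fold change was -2.85 (SE 0.84, edgeR adjusted p = 0.00405). Ndufs3 had 1 and 0 H3K9me2 reads against 21 and 35 input reads (edgeR adjusted p = 0.00622). Both were therefore low in v102 and in v134. Ndufs1, the large iron-sulfur subunit, had 4 and 1 reads against 28 and 41 and missed the threshold (edgeR adjusted p = 0.0601). Ndufs8 was the exception among the core subunits, with 7 and 16 reads against 22 and 54, a ratio of 0.303 and an edgeR adjusted p of 0.307.

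Of the accessory promoters, the 7 called below input were Ndufc1, Ndufa10, Ndufa2, Ndufb3, Ndufa12, Ndufa3 and Ndufb11. Ndufc1, the lowest of complex I by the mean log2 ratio, had 1 and 0 H3K9me2 reads against 29 and 40 input reads (ratio 0.0145, 95% Wilson interval 0.00253 to 0.0829; edgeR adjusted p = 0.00127). Ndufb11, on the X chromosome, had 0 reads against 5 and 18. With 3 reads put in place of 0, its ratio would be 0.130, 1.76-fold lower than the level over all promoters together, which leaves out the counting error of the input. The edgeR adjusted p of Ndufb11 was 0.0260, and 0.141 with the replicate block. Input at X-linked promoters was lower, with a median of 40 summed reads at the 3 X-linked members and 63 at the 82 placed autosomal members. The other X-linked members, Ndufa1 with 3 and 3 reads against 15 and 25 and Cox7b with 6 and 11 against 15 and 33, were not called.

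Ndufs4, an accessory subunit whose loss impairs complex I in human and mouse disease, had the highest level of any protein-coding member. It had 25 H3K9me2 reads against 18 input reads in v102 and 32 against 61 in v134, a ratio of 0.722 with a 95% Wilson interval of 0.514 to 1.01. The log2 fold change was 1.85 (SE 0.35, edgeR adjusted p = 3.21e-06), and the call held with the replicate block (adjusted p = 0.000291) and by DESeq2 (adjusted p = 0.00564). It ranked at percentile 97.1 in v102 and 87.0 in v134, so both experiments placed it high. The gene lies on chromosome 13 at 114287795 to 114388258 of GRCm38 on the minus strand. Its window overlapped no other listed promoter. At the Fst promoter, the nearest in the table at 70693 bases, there were 4 and 1 reads against 14 and 25. The 86 bases upstream of the annotated transcript, from RefSeq (GRCm38.p6) on the minus strand at chr13:114388259-114388344, are shown because this was the highest protein-coding promoter, with CpG dinucleotides in capitals.
Ndufs4: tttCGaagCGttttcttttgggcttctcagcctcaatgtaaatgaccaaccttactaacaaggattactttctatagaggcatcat

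The other complex I promoters called above input lay in windows shared with another gene. Ndufa13, also known as Grim-19, had 15 and 13 H3K9me2 reads against 20 and 28 input reads (ratio 0.583; log2 fold change 1.48, SE 0.44; edgeR adjusted p = 0.00445). Its start lies 154 bases from that of Yjefn3, which has the same counts in all 4 libraries, so the signal cannot be assigned to either gene. Ndufb2 had 9 and 19 reads against 23 and 35 (ratio 0.483; edgeR adjusted p = 0.0201, and 0.0484 with the replicate block), and the divergent Gm16272, 210 bases away, had 8 and 23 against 28 and 44. Ndufa9, next below Ndufb2 in the order of mean log2 ratios, had 8 and 16 reads against 19 and 42 and was not called (edgeR adjusted p = 0.0842).

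Of the 4 succinate dehydrogenase promoters (complex II), 1 was called below input and none above, compared with 17.0% and 18.6% of all promoters, and none was called with the replicate block. Sdhc, a membrane anchor, had 2 H3K9me2 reads in each experiment against 22 and 46 input reads (ratio 0.0588, 95% Wilson interval 0.0223 to 0.155). It was called below input (log2 fold change -1.79, SE 0.71; edgeR adjusted p = 0.0369), but not with the replicate block (adjusted p = 0.0789). Sdha, the flavoprotein, had 0 and 3 reads against 14 and 31, Sdhb, the iron-sulfur subunit, 6 and 3 against 27 and 38, and Sdhd, the other anchor, 4 and 4 against 20 and 39. None of these 3 was called. All 4 promoters had a mean log2 ratio below the median of all promoters, -0.31.

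In complex III, all 8 promoters had a mean log2 ratio below 0, from -1.93 at Uqcr11 to -0.15 at Uqcrb. The median of all promoters was itself below 0, at -0.31. Below that median were 7 of the 8 promoters, whereas Uqcrb lay at percentile 54.7 of all promoters. Uqcr11, a small subunit, was the only one called, with 2 and 0 H3K9me2 reads against 22 and 33 input reads (edgeR adjusted p = 0.0219, and 0.0711 with the replicate block). The core proteins Uqcrc1 and Uqcrc2 had 1 and 4 reads against 17 and 33, and 0 and 7 against 28 and 41. Uqcrfs1, the Rieske iron-sulfur protein, had 1 and 9 against 24 and 56. The last 2 promoters were thus low in v102 and near the typical level in v134.

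Complex V was close to all promoters in its centre, with a median of -0.39. In the catalytic head, Atp5c1 (gamma subunit) was called below input with 1 H3K9me2 read in each experiment against 16 and 40 input reads (edgeR adjusted p = 0.0218, and 0.0654 with the replicate block). The alpha and beta subunit promoters were not called: Atp5a1 had 4 and 10 reads against 22 and 57, and Atp5b 7 and 9 against 25 and 62, ratios of 0.177 and 0.184. Atp5g1, Atp5g2 and Atp5g3 encode the same mature subunit c of the rotor from separate genes, and their ratios were 0.227, 0.0323 and 0.0820. Atp5g2 had 1 read in each experiment against 35 and 27 and was called below input (log2 fold change -2.70, SE 0.86; edgeR adjusted p = 0.00893). Atp5g1 had 4 and 13 against 25 and 50, and Atp5g3 3 and 2 against 21 and 40, and neither was called.

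The extremes of complex V were a pseudogene and an accessory factor. Atp5l-ps1, a processed pseudogene of the subunit g gene Atp5l on chromosome 7 (62476306 to 62476617, plus strand), had 13 and 29 H3K9me2 reads against 16 and 26 input reads, the highest ratio of all members at 1.00 (95% Wilson interval 0.654 to 1.53). Its log2 fold change was 2.23 (SE 0.40, edgeR adjusted p = 8.99e-07). The parent Atp5l had 0 and 4 against 20 and 33 and was not called. How reads that align to both copies were handled was not given in the sources used here, so the part of the window that is copied from Atp5l is uncertain. Atp5s, the gene for coupling factor B, had 0 H3K9me2 reads against 25 and 36 input reads (edgeR adjusted p = 0.000375). With 3 reads put in place of 0, its ratio would be 0.0492, 4.68-fold lower than over all promoters together. That leaves out the counting error of the input, and the 95% Wilson interval reaches 0.0630. Cox4nb, counted in complex IV by its symbol but now named Emc8 and a subunit of the endoplasmic reticulum membrane complex, was called below input with 2 and 0 reads against 24 and 30 (edgeR adjusted p = 0.0231, and 0.0698 with the replicate block). Neither Cox7a2l, a supercomplex assembly factor, nor Atp5sl, now Dmac2, was called, with ratios of 0.0833 and 0.296.

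The 12 complex IV promoters outside the tissue-restricted isoforms ranged from a mean log2 ratio of -1.92 at Cox4nb to 0.74 at Cox7b. Cox5a and Cox5b, which are present in all tissues, had 6 and 6 reads against 19 and 32 and 4 and 11 against 24 and 34, with ratios of 0.235 and 0.259, and neither was called. Cox6c and Cox7c had ratios of 0.163 and 0.299. Cox6a1, the widely expressed form of subunit VIa, was called below input with 1 and 3 H3K9me2 reads against 27 and 52 input reads (log2 fold change -2.01, SE 0.68; edgeR adjusted p = 0.0139, and 0.0383 with the replicate block).

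Tissue-restricted isoforms were then compared with their widely expressed paralogs in 8 pairs, by Fisher's exact test (two-sided) on reads summed over the experiments, which covers counting error only. On their own against input, 2 of the 3 testis isoforms were called above, 1 of the 3 heart and skeletal muscle isoforms below, and 1 of the 2 hypoxia or lung isoforms below, the last not with the replicate block. Over all 8 isoforms this was 25.0% below and 25.0% above, compared with 17.0% and 18.6% of all promoters. Of the 8 pairs, 2 differed at an adjusted p under 0.05 over the 8 pairs, in opposite directions.

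Cox8c, the testis form of subunit VIII (chromosome 12, 102899316 to 102900526), had 13 and 19 H3K9me2 reads against 17 and 44 input reads, whereas the widely expressed Cox8a had 3 and 2 against 22 and 31. The ratios were 0.525 (95% Wilson interval 0.343 to 0.802) and 0.0943 (0.0388 to 0.229). The odds ratio was 5.51 (95% interval 1.94 to 19.4; Fisher's exact test p = 0.000364, adjusted p = 0.00291 over the 8 pairs). It was 5.44 in v102 and 6.59 in v134, so both experiments gave the same direction. Stratified by experiment as a replicate block, the exact test gave an adjusted p of 0.00134. Cox8c was also called above input on its own by edgeR (adjusted p = 0.00544), but not by DESeq2 (adjusted p = 0.0654). Cox8b, the heart and skeletal muscle form, had 2 and 2 reads against 18 and 38, with a ratio of 0.0714, and its odds ratio to Cox8a was 0.759 (95% interval 0.143 to 3.74; exact adjusted p = 0.848 over the 8 pairs).

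Cox7a1, the heart and skeletal muscle form of subunit VIIa (chromosome 7, 30184144 to 30186078), had the lowest ratio of complex IV, with 0 and 1 H3K9me2 reads against 19 and 72 input reads. The ratio was 0.0110 (95% Wilson interval 0.00193 to 0.0627), and the promoter was called below input (log2 fold change -4.08, SE 0.93; edgeR adjusted p = 0.000135, and 0.00339 with the replicate block). Cox7a2, its widely expressed paralog, had 5 and 8 against 32 and 61, a ratio of 0.140 (0.0789 to 0.248), and was not called. The odds ratio was 0.0793 (95% interval 0.00183 to 0.548; Fisher's exact test p = 0.00178, adjusted p = 0.00713 over the 8 pairs, and 0.0132 stratified by experiment as a replicate block). Within v134 alone the odds ratio was 0.107 (exact adjusted p = 0.0612), and in v102 Cox7a1 had 0 reads.

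The sequences upstream of these promoters are shown because Cox7a1 against Cox7a2 and Cox8c against Cox8a were the pairs that differed, and Cox6a1 and Cox7b2 were the lowest paralog and the highest isoform. They are from RefSeq (GRCm38.p6), 5' to 3' on the strand of the gene, cut at the annotated transcript start, with CpG dinucleotides in capitals. In the 250 bases before the RefSeq start there were 4 CpG at Cox7a1, 14 at Cox7a2, 11 at Cox8a, 9 at Cox7b2 and 26 at Cox6a1, compared with a median of 12 over 14257 promoters with a sequence. Their positions are chr7:30183921-30184143 (plus strand) for Cox7a1, chr9:79759879-79760103 (minus) for Cox7a2, chr19:7217617-7217866 (minus) for Cox8a, chr5:71548206-71548455 (minus) for Cox7b2 and chr5:115348982-115349208 (minus) for Cox6a1.
Cox7a1: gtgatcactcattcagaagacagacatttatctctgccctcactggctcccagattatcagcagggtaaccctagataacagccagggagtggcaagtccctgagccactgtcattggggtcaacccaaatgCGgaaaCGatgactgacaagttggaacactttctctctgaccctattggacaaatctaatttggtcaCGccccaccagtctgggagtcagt
Cox7a2: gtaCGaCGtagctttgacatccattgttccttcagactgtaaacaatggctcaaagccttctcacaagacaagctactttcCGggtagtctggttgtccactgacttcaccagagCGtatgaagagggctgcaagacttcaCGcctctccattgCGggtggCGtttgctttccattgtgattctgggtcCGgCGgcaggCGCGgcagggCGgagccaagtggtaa
Cox8a: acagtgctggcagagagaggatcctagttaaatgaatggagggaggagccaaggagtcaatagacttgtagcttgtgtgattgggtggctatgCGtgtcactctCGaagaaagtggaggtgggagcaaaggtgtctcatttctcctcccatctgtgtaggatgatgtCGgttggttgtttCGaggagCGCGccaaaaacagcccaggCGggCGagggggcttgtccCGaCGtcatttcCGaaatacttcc
Cox7b2: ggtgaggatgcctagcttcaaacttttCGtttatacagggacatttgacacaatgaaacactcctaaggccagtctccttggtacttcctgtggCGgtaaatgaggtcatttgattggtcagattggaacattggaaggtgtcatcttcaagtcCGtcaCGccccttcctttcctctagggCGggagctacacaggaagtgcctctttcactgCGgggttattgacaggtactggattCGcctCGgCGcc
Cox6a1: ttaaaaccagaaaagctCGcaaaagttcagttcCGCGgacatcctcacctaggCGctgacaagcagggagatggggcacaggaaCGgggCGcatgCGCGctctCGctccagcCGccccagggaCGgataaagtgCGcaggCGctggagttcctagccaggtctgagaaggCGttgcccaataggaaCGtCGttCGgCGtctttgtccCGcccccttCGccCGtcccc

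Cox7b2, the testis form of subunit VIIb, had 15 and 17 H3K9me2 reads against 13 and 33 input reads, a ratio of 0.696 (95% Wilson interval 0.445 to 1.09), and was called above input (log2 fold change 1.76, SE 0.43; edgeR adjusted p = 0.000386). Its paralog Cox7b, on the X chromosome, had the highest ratio of the paralogs at 0.354, and the odds ratio of the pair was 1.95 (95% interval 0.911 to 4.30; exact adjusted p = 0.155 over the 8 pairs). Cox6b2, the remaining testis form, had 6 and 9 reads against 20 and 32, close to Cox6b1 with 4 and 17 against 25 and 56 (odds ratio 1.11, 95% interval 0.486 to 2.50; exact adjusted p = 0.848).

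Cox6a2, the heart and skeletal muscle form of subunit VIa, had 6 H3K9me2 reads against 11 input reads in v102 but 1 against 21 in v134. Against Cox6a1 the odds ratio was 4.26 (95% interval 1.00 to 21.3; Fisher's exact test p = 0.0362, adjusted p = 0.0966 over the 8 pairs), made up of 13.8 in v102 and 0.827 in v134, so the experiments went in different directions. Cox4i2, expressed in lung and under low oxygen, had 3 and 0 reads against 25 and 33 and was called below input (edgeR adjusted p = 0.0382, and 0.09997 with the replicate block). Cox4i1 had 6 and 0 reads against 29 and 40 (odds ratio of the pair 0.597, 95% interval 0.0925 to 2.94; exact adjusted p = 0.848). Ndufa4l2, induced by low oxygen, had 3 and 1 against 17 and 41, and Ndufa4, now placed in complex IV, 1 and 6 against 36 and 43. Their odds ratio was 0.780 (95% interval 0.160 to 3.24; exact adjusted p = 0.848), with 6.14 in v102 and 0.178 in v134. The intervals of the last 2 pairs include differences in both directions.

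**Figure D3:**
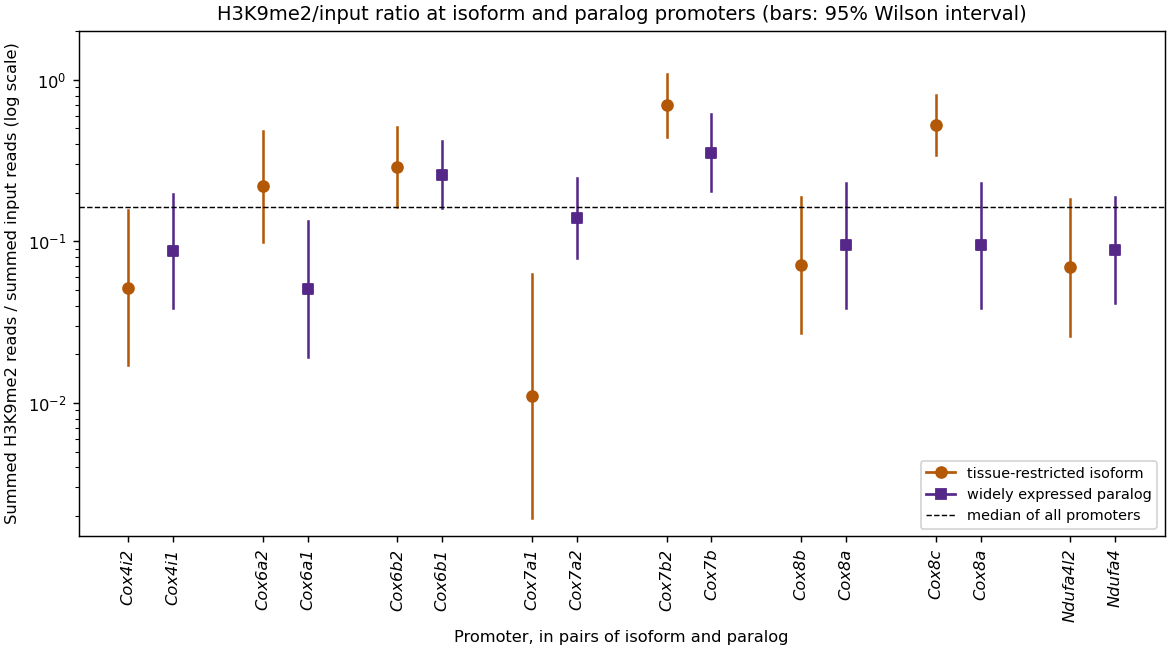
Summed H3K9me2 reads divided by summed input reads (log axis) at the promoters of 8 pairs of a tissue-restricted isoform (circles) and its widely expressed paralog (squares), with 95% Wilson intervals that cover counting error only. Cox8c lies above Cox8a and Cox7a1 below Cox7a2 with intervals that do not overlap; the dashed line is the median of all promoters, 0.162.

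Many respiratory chain genes share a promoter region with a neighbour. Of the 85 members placed on GENCODE positions for GRCm38, 35 (41.2%) had a window that overlapped that of another listed promoter, and 33 (38.8%) were head to head with it, compared with 19.4% and 16.3% of 24086 placed promoters. The trait was not particular to them: the shares were 48.1% and 46.8% of mitochondrial ribosomal protein promoters. They were 57.1% and 57.1% of the 21 assembly factors described below, but 25.2% and 13.9% of the cytosolic ribosomal list. Overlap was also less frequent in the tricarboxylic acid cycle (30.8%), carrier (36.4%) and regulator (12.5%) lists described below. Overlap was found at 19 of 37 promoters of complex I and at 2 of 19 of complex IV, and at none of the 8 isoforms. Of the 35 overlapping members, 11 (31.4%) were called below input and 2 (5.71%) above, both near the 30.6% and 6.03% of all overlapping promoters. Their median log2 ratio was -0.83, compared with -0.92 over all overlapping promoters. Of the 50 members without overlap, 10 were below, compared with 14.6% of all promoters without overlap, and 4 (8.00%) were above, compared with 19.95%. At 6 members all 4 counts were equal to those of the neighbour: Ndufs1, Sdhc, Ndufa13, Atp5s, Sdha and Ndufa7. Those counts therefore describe a shared region.

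Sequence composition was closer to that of all promoters. Within 1 kb of the start, the members had a median GC content of 51.0% and 72 CpG, compared with 50.9% and 57 over all placed promoters. The 8 isoforms had a median of 35 CpG, from 28 to 53, and their 7 paralogs 71. The mean log2 ratio and CpG count had a Spearman rho of -0.207 over 85 members and -0.553 over 24081 promoters, and with GC content rho was -0.241 and -0.540; promoters within a library are not independent. Single promoters departed from this order: Ndufa13, with 169 CpG and 63.0% GC, was above input, and Cox7a1, with 36 CpG, was below. With the trend in GC content removed, the median of the members lay 0.18 below that of all promoters, compared with 0.32 without the correction.

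**Figure D4:**
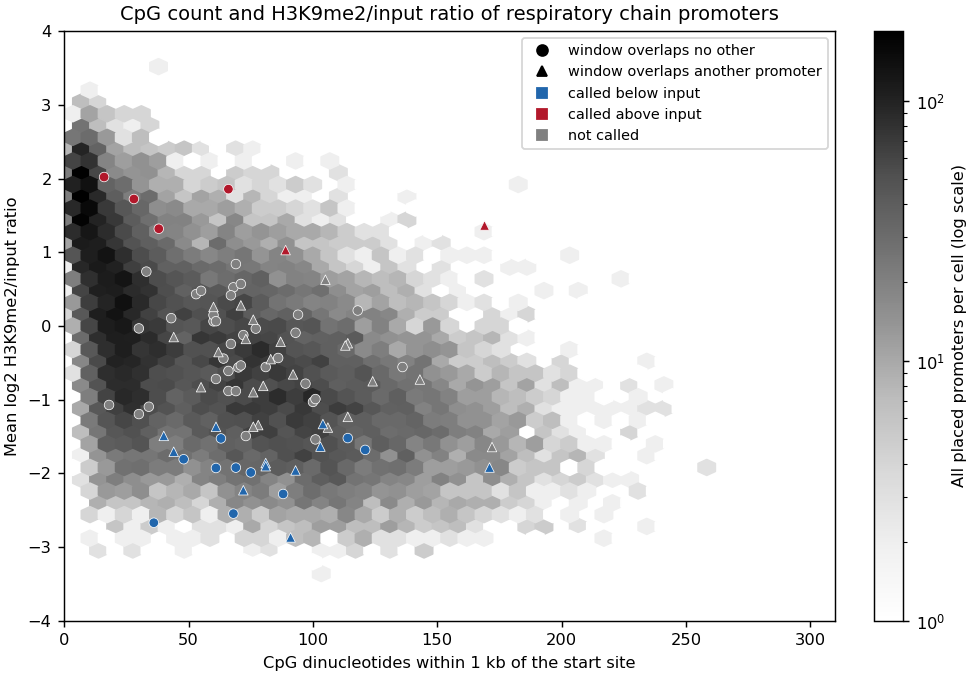
Mean log2 H3K9me2/input ratio against the number of CpG dinucleotides within 1 kb of the start site, for 85 respiratory chain promoters (coloured points; triangles for windows that overlap another promoter) over the density of all placed promoters (grey). Of the 6 promoters called above input, 3 have 38 CpG or fewer, whereas Ndufa13 has 169.

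Motifs of factors known to act on respiratory chain genes were searched for on both strands in RefSeq sequences from 250 bases before to 50 after the start, which were found for 63 members and 14257 promoters in all. The NRF1 motif GCGCATGCG was in 7 members (11.1%, compared with 2.83% of all), the YY1 motif AAGATGGCG in 7 (11.1%, compared with 2.27%) and the ETS motif CCGGAAG, bound by GABP, in 15 (23.8%, compared with 13.5%). TATAAA was in 7 members (11.1%, compared with 10.6%), and the MEF2 motif TATTTATA in 0 members, compared with 1.28% of all. Of the 7 members with the NRF1 motif, 2 were called below input and 0 above, and of the 15 with the ETS motif 3 and 0. Of the 7 with the YY1 motif 2 were below and 1 above, as were 2 and 1 of the 7 with TATAAA. The shares were 24.4% below and 6.98% above over all 86 members, with or without a sequence, and 17.0% and 18.6% over all promoters. The median log2 ratio with and without the motif was 0.26 and -0.59 for YY1. It was -0.88 and -0.55 for NRF1 and -0.61 and -0.31 for ETS. In the stretch of Cox6a1 shown above, GCGCATGCG starts 162 bases upstream of the RefSeq start, with its overlapping match on the other strand starting at 161. CCGGAAG lies on the opposite strand from 16 bases upstream, beyond the end of the printed stretch. A match is a run of letters and was not tested for binding.

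Other genes of oxidative metabolism were counted in the same way, and the shares are to be read against 17.0% of all promoters below and 18.6% above input. Of 13 tricarboxylic acid cycle promoters 3 (23.1%) were called below and 2 (15.4%) above input, both near the shares of all promoters, the latter Sucla2 with 9 and 33 H3K9me2 reads against 18 and 35 input reads (edgeR adjusted p = 2.23e-05) and Dld with 11 and 34 against 25 and 56 (edgeR adjusted p = 0.00106). Among the 21 assembly factors found in the table, of 36 sought, 9 (42.9%) were below and 1 above, with a median log2 ratio of -1.27. The 1 above was Cox16, with 15 and 25 against 18 and 44 (edgeR adjusted p = 0.000268). Of the 21 assembly factor promoters, 12 were head to head with another listed promoter. Among all head-to-head promoters, 33.0% were called below input, with a median log2 ratio of -1.02. Of 11 electron carrier and coenzyme Q promoters 3 (27.3%) were below and 0 above, and Cycs, somatic cytochrome c, had 0 and 8 against 25 and 30, whereas the testis form Cyct had 6 and 12 against 19 and 53; neither was called. Of 8 regulators 4 (50.0%) were below and 0 above, among them Ppargc1a, the coactivator of mitochondrial biogenesis, with 3 and 5 reads against 35 and 74 (edgeR adjusted p = 0.0219), and Esrra with 1 and 0 against 19 and 40 (edgeR adjusted p = 0.00472). Nrf1 and Tfam were not called. With the replicate block, calls below input numbered 1, 4, 3 and 2 in the 4 lists, or 7.69%, 19.0%, 27.3% and 25.0%, compared with 8.30% of all promoters.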

How the data were processed

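H3K9me2 ChIP and input libraries from 2 experiments were analysed. Per the labels and the study's methods, paired-end reads of 75 bases were trimmed with Trim Galore 0.4.2 and cutadapt 1.9.1, aligned to GRCm38 with Bowtie2 2.2.7 and counted in SeqMonk within 1 kb of each start site. The authors deposited raw read counts per promoter in each library, their sums over the experiments, and the ratio of these sums (ChIP over input). The annotation release and the handling of duplicate or multiply aligned reads were not given in the sources used here.

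The test was edgeR's quasi-likelihood test (version 4.0.16 in R 4.3.3, TMM, no block, Benjamini-Hochberg over all 26354 promoters, called at 0.05), with DESeq2 1.42.0 as an alternative. It was also run on simulated counts drawn with the dispersion of this fit. That check set conditions for large gains and for unchanged promoters, and none for losses. Each ChIP library has its own input, so the experiment number pairs them; the differences between experiments in ChIP and in input had a correlation of 0.0788 across promoters. Per experiment, the log2 ratio used a pseudocount of 1 read and the promoter totals. Wilson intervals (95%) and the floor of 3 reads for a count of 0 describe counting error alone, because copies of 1 molecule were not marked by identifiers. Isoform pairs were compared by Fisher's exact test. Positions came from GENCODE for GRCm38 by symbol (83 members), or by synonym (Atp5sl and Cox4nb); Atp5o was not placed, and 77 of 85 members had an annotated start that fits the row order of the table, compared with 97.5% of placed promoters; the start used by the authors may differ at the others (among them Ndufs1, Ndufs6, Ndufa11, Cox4nb, Cox4i1, Atp5g2 and Atp5a1). Promoter sequences came from RefSeq; Cox6a2, Cox4i2, Cox4i1, Cox8c, Ndufa4l2 and Atp5s had no entry used here. The members and the lists were chosen with earlier results of these data known. Named promoters were both genes of each pair, the 4 Sdh genes, members called above input or with 0 ChIP reads, the extremes of each complex, core subunits and X-linked members; other members called below input, members next to a threshold and genes outside the chain were named after their values were seen. A member and some neighbouring genes are counted but not reported singly here. Alternatives were library totals, input minimums, the replicate block, windows of 30 mitochondrial genes left out, a pseudocount of 5, a GC trend removed by lowess and each experiment alone. Tables and plots were made in Python 3.11.15 with scipy 1.17.1 (intervals), statsmodels 0.14.6 (lowess), matplotlib 3.10.9, pandas 2.3.3 and numpy 2.4.6.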

Additional observations from a re-analysis of the deposited data

How the results depend on the processing

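Single promoters rest on few reads, no edgeR fit is possible within 1 experiment, and promoters share libraries, so the medians are descriptions. With the experiment number as a replicate block (pairing each ChIP with its input), 12 members were called below input in place of 21, while 6 stayed above in number; the block changed no call of an isoform pair. When each input had to hold 20 reads or more, 10 of 56 members were below (17.9%, compared with 12.0% of all promoters) and 2 above (3.57%, compared with 17.5%). Ndufs4, Cox8c, Cox7b2 and Atp5l-ps1 do not pass that minimum. DESeq2 gave 0 and 3, compared with 0.110% and 11.5% of all promoters. Without members in overlapping windows, chosen after seeing the data, 10 were below and 4 above, compared with 14.6% and 19.95% of all promoters without overlap. The medians were then -0.54 for all members, -0.033 for complex IV and -0.036 for complex V, compared with -0.22 for all promoters without overlap. Complex III, where 4 of 8 promoters overlapped another, had -1.27. In complex II 3 of 4 overlapped, so its value of -0.56 is that of Sdhb alone.

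The median of the members was -0.63. A pseudocount of 5 reads, which lifts the smaller ChIP counts more, turned it to 0.11, and those of complexes I, II, IV and V to 0.19, 0.070, 0.055 and 0.28, with -0.052 in complex III; all promoters moved to 0.34, so the members stayed 0.23 below them. TMM library sizes gave -0.50 for the members and -0.30 for complex IV, and summed reads -0.72 for the members. All promoters had -0.18 with TMM library sizes and -0.38 with summed reads. Under the minimum of 20 in each input the medians were -0.75 for the members and -0.56, -1.39, -0.71 and -0.21 for complexes II to V. All promoters that passed this minimum had a lower median too, -0.56. The difference of the members from all promoters was then -0.19, compared with -0.32 in the main setting. Removal of the GC trend gave -0.54 for the members, -0.035 for complex V and -0.36 for all promoters with a GC value. Subunits only gave -0.61, and Ndufa4 and Ndufa4l2 in complex IV moved its median to -0.54. Leaving out v102 or v134, the medians ranged from -0.56 to -0.53 for the members, -0.80 to -0.41 for complex I, -0.90 to -0.57 for complex II, -1.12 to -0.76 for complex III, -0.54 to -0.45 for complex IV and -0.47 to -0.25 for complex V. All promoters had -0.38 without v102 and -0.11 without v134. The difference of the members from all promoters was therefore -0.18 without v102 and -0.42 without v134.

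Within single experiments, the log2 odds of Cox8c against Cox8a were 2.44 to 2.72, and neither experiment alone passed the threshold (exact adjusted p from 0.0612 to 0.0657 over the 8 pairs); Cox7a1 against Cox7a2 gave -3.22 in v134 (0.0612) and no estimate in v102, where Cox7a1 had 0 reads. Single experiments turned the direction of other pairs: the log2 odds ranged from -0.27 (v134) to 3.79 (v102) for Cox6a2 against Cox6a1, from -0.11 (v134) to 0.89 (v102) for Cox6b2 against Cox6b1, and from -2.49 (v134) to 2.62 (v102) for Ndufa4l2 against Ndufa4. The cause was not tested.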

Other observations

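Chosen after their values were seen, some members differed widely between the experiments. Uqcrc2 had 0 H3K9me2 reads against 28 input reads in v102 and 7 against 41 in v134, at percentiles 0.871 and 55.8 of all promoters. Cox4i1 had 6 against 29 in v102 and 0 against 40 in v134, at percentiles 48.1 and 1.63. Uqcrq lay at percentiles 65.5 and 16.2, and Ndufc2 at 21.3 and 80.4. None of these 4 was called, and the difference between the experiments was not tested at single promoters.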
